A study of Mus musculus with 15 samples.

Results

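The mammalian circadian clock genes were followed in cultured mouse cardiomyocytes: the activators Arntl (also called Bmal1) and Clock, the repressors Per1, Per2, Per3, Cry1 and Cry2, the nuclear receptors Nr1d1 and Nr1d2, and the output gene Dbp. They were chosen by symbol, and all 10 were found among the 14337 genes listed and the 12848 genes tested. RNA-Seq of primary cardiomyocytes from wild-type C57/BL6 pups aged 1 to 3 days gave 15 libraries. All cells spent 5 days in culture and then 24 h in medium with 0.5% FBS. Treatment began on day 6 and RNA was taken on day 8. The control group received saline (libraries S1, S2 and S3), the AngII group angiotensin II at 1 µM (S5 to S8), the ldCil group low-dose cilengitide at 20 nM (S9 to S12), and the AngII + ldCil group both agents at those doses (S13 to S16). Angiotensin II is a peptide hormone that enlarges cardiomyocytes in culture, and cilengitide is a cyclic peptide ligand of αv integrins. The questions were whether either agent moved the clock genes and whether libraries of one treatment differed in clock phase. The clock time of harvest is not given in the sources used here. Libraries are single time points, and separate cultures for the replicates are not stated, so the p-values reflect only how much these libraries vary, which may be technical.

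The clock is a feedback loop of transcription. The proteins of Arntl and Clock bind DNA as a pair at a short sequence called the E-box and switch on the Per, Cry, Nr1d and Dbp genes. PER and CRY proteins then block that pair, and the Nr1d receptors silence Arntl at sites called ROREs, so that in rhythmic tissues Arntl is high when Nr1d1, Dbp and the Per genes are low. Heart muscle keeps such a clock of its own, and serum, stress hormones and glucocorticoids can reset it in culture.

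Promoter letters are shown for 4 members in which the 250 bases before a RefSeq start (GRCm38.p6) held a clock motif, because these are the sites through which the loop is known to act. On both strands the motifs searched were the E-box CACGTG, the variant E'-box CACGTT, the D-box TTATGTAA or TTACGTAA, at which the Dbp protein binds, and the RORE core TAGGTCA or TGGGTCA. Of 32851 RefSeq promoters of the same length, 6.02% held the E-box, 3.85% the E'-box, 0.931% the D-box and 5.38% the RORE core. Of the 9 members with an entry, with 13 promoters between them, 5 held at least 1 motif. The promoter of Per3, a repressor, lies on the minus strand at chr4:151044666-151044915 and holds 2 D-boxes, which begin 205 and 158 bases before the start. That of Cry1, on the minus strand at chr10:85185055-85185304, holds an E'-box and an E-box, which begin 79 and 60 bases before the start. That of Nr1d1, on the minus strand at chr11:98775378-98775627, holds an E'-box 28 bases before the start. One of the Per1 promoters, on the plus strand at chr11:69098699-69098948, holds an E-box 166 bases before the start. The remaining one was Cry2, with an E'-box 166 bases before its start. Capitals mark the motifs, and an E'-box read on the other strand appears as AACGTG. None of these letters was found in the windows of Arntl, Clock, Nr1d2 and Dbp. The search took only these exact letters within 250 bases, so sites elsewhere or with other letters would be missed. A match describes the letters and not a bound site.
Per3: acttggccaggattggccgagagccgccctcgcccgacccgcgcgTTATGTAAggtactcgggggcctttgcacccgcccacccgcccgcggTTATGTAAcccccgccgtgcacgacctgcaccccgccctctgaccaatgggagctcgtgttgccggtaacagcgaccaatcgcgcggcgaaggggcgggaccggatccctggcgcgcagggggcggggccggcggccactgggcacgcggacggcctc
Cry1: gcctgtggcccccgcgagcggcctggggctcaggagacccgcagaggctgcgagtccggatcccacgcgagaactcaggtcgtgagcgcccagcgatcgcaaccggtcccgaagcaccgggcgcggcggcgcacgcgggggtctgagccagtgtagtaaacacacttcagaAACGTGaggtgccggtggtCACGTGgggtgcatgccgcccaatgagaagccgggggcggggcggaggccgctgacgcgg
Nr1d1: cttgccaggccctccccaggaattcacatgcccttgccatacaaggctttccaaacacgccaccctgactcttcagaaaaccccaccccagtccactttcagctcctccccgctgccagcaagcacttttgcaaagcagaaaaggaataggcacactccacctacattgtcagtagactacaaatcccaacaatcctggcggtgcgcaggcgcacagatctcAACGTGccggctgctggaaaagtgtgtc
Per1: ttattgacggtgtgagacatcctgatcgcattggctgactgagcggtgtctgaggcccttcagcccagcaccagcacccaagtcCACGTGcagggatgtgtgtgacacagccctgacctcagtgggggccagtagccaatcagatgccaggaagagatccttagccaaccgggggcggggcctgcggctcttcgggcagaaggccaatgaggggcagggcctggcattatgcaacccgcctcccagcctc

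Levels are in log2 RPKM (reads scaled to gene length and to the size of the library) and were normalised by the authors with conditional quantile normalisation. Read counts were not used here, which leaves the sequencing depth unknown and allows no counting intervals. The cells carried high levels of the cardiomyocyte markers Actc1 (mean 11.7), Myh6 (11.2) and Tnnt2 (11.1). Markers used for fibroblasts, smooth muscle and macrophages were also present, while the 4 erythroid markers were not listed. The smooth muscle markers were uneven, with a mean of 10.1 for Acta2 and 2.07 for Myh11. In such bulk RNA, fewer cells of a type and less RNA per cell cannot be told apart. Clock had the highest mean level of the clock genes, 5.26 ± 0.31 (SD, n = 15), and Per2 the lowest, 2.34 ± 0.26. Between them came Nr1d1 (5.00 ± 0.55), Nr1d2 (4.93 ± 0.35), Per1 (3.76 ± 0.18), Dbp (3.67 ± 0.46), Cry2 (3.66 ± 0.21), Per3 (3.55 ± 0.40), Cry1 (3.05 ± 0.25) and Arntl (2.83 ± 0.31). Of the 9 neighbouring pairs in this order, only the steps from Nr1d2 down to Per1 and from Arntl down to Per2 were present in 15 of 15 libraries. The step from Per3 to Cry1 was present in 13 of 15, and the other neighbours exchanged places in at least 4 libraries each, so those levels did not differ beyond their spread.

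**Figure D1:**
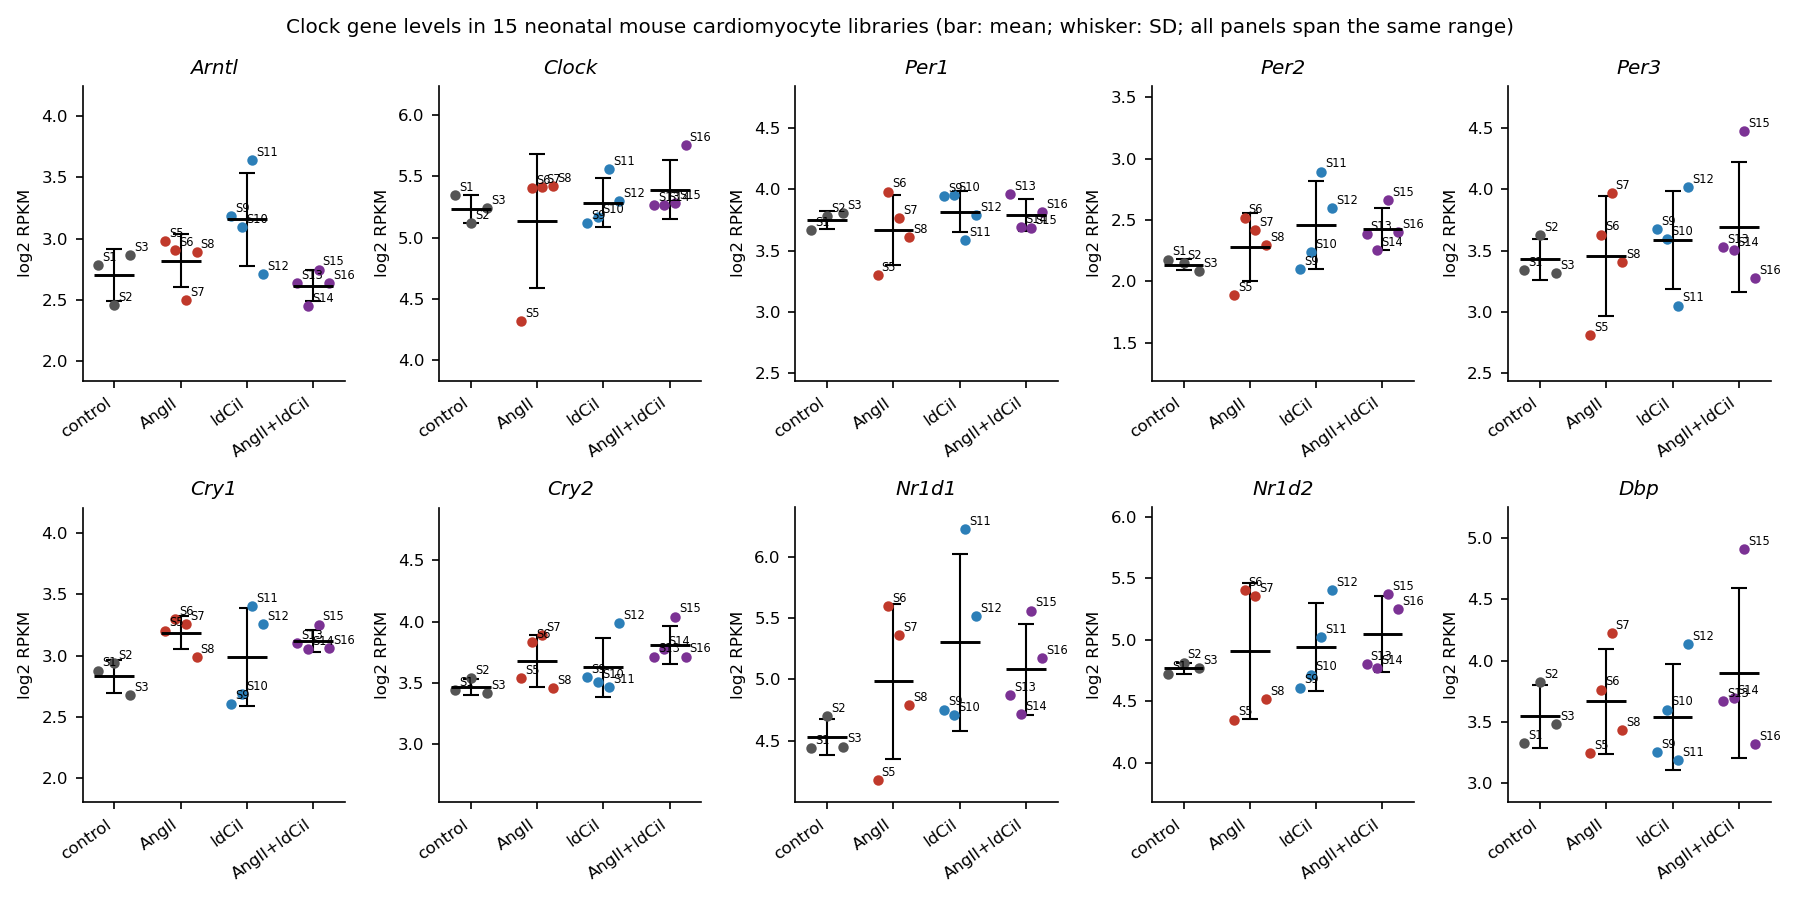
Level of each clock gene (log2 RPKM, y axis) in each library, by treatment (x axis). Each point is 1 library with its name, the bar is the group mean and the whisker the SD, and each panel spans the same range of log2 units. Libraries of one treatment can lie far apart, as for Nr1d1 between S10 at 4.71 and S11 at 6.22 within ldCil.

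Arntl (ENSMUSG00000055116.8, chr7:113207465-113314126), the activator whose own RNA cycles most strongly in rhythmic tissues, was the member with the largest share of its variance between the treatments, 47.8% against a median of 18.3% over all genes tested. In control cells its level was 2.78 in S1, 2.46 in S2 and 2.87 in S3. With AngII it was 2.98 in S5, 2.91 in S6, 2.50 in S7 and 2.89 in S8. With ldCil it was 3.19 in S9, 3.09 in S10, 3.64 in S11 and 2.71 in S12, so 3 of the 4 ldCil libraries lay above every library of the other groups. With AngII + ldCil it was 2.64 in S13, 2.45 in S14, 2.75 in S15 and 2.64 in S16. These lay below the ldCil libraries except that S15 was above S12. The level with ldCil exceeded that in control by 0.45 on the log2 scale (standard error 0.20, unadjusted p = 0.0399 and adjusted p = 0.966 by limma). With both agents it was lower than with ldCil alone, with a log2 fold change of −0.54 (standard error 0.19, unadjusted p = 0.0114, adjusted p = 0.974). The interaction, which asks whether ldCil acted differently with AngII than without it, was −0.66 (standard error 0.27, unadjusted p = 0.0306, adjusted p = 0.958). None of the 3 passed the adjustment over all genes. Without S11 the difference between ldCil and control was 0.29 (unadjusted p = 0.133), and without S2 it was 0.33 (unadjusted p = 0.166). The difference between AngII + ldCil and ldCil stayed under an unadjusted p of 0.05 in every alternative run, and without S11 it was −0.38.

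Clock (ENSMUSG00000029238.11, chr5:76209868-76304792), the partner of Arntl, is known to cycle little in most tissues. Its control levels were 5.34, 5.12 and 5.24 in S1, S2 and S3. The AngII libraries S6, S7 and S8 stood at 5.41, 5.41 and 5.42 while S5 stood at 4.32. In ldCil cells it was 5.12 in S9, 5.17 in S10, 5.56 in S11 and 5.30 in S12. With both agents S13, S14 and S15 had 5.27, 5.26 and 5.28, and S16 had 5.75. So in each of the groups with AngII, 3 libraries lay close together and 1 stood apart. The log2 fold change between AngII and control was −0.10 (standard error 0.23) and turned to 0.18 without S5.

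The Per genes encode the repressors that pair with CRY, and Per1 and Per2 are also known as early responders to serum and hormones. Per1 (ENSMUSG00000020893.17, chr11:69095217-69109960) was the most even member together with Cry2, with an SD within groups of 0.19 against a median of 0.29 over all genes tested. It ran from 3.67 in S1 to 3.80 in S3 in control, from 3.30 in S5 to 3.98 in S6 with AngII, from 3.59 in S11 to 3.95 in S10 with ldCil and from 3.68 in S15 to 3.96 in S13 with both agents. All 4 groups overlapped. Per2 (ENSMUSG00000055866.9, chr1:91415982-91459324) had a level of 2.18, 2.15 and 2.08 in the control libraries S1 to S3. It was 1.89, 2.52, 2.41 and 2.30 in S5 to S8, 2.10, 2.24, 2.89 and 2.59 in S9 to S12, and 2.39, 2.25, 2.66 and 2.40 in S13 to S16. The 4 AngII + ldCil libraries thus lay above the 3 controls, while the AngII and ldCil libraries reached from within or below the range of the controls to well above it. The log2 fold change of AngII + ldCil against control was 0.29 (standard error 0.21, unadjusted p = 0.182). Per3 (ENSMUSG00000028957.12, chr4:151003652-151044665) varied more, with an SD within groups of 0.44. Its level was 3.34, 3.62 and 3.32 in S1 to S3, then 2.81, 3.63, 3.97 and 3.41 in S5 to S8. It was 3.67, 3.60, 3.05 and 4.02 in S9 to S12 and 3.53, 3.50, 4.47 and 3.28 in S13 to S16. The lowest library was S5 and the highest S15, and only 7.52% of the variance lay between treatments. The annotated spans of Per3 and Camta1 overlap on the same strand, with no shared exonic bases. Camta1 had a mean level of 6.31 and an r of 0.78 with Per3 with treatment means removed. Any part of Camta1 in the Per3 level was not tested.

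The Cry genes encode the stronger repressors of the loop. Cry1 (ENSMUSG00000020038.10, chr10:85131700-85185064) had control levels of 2.88, 2.94 and 2.68. With AngII it was 3.20 in S5, 3.30 in S6, 3.26 in S7 and 2.99 in S8, and with both agents 3.10, 3.05, 3.25 and 3.06 in S13 to S16. All 8 of these libraries lay above the 3 controls. The ldCil libraries fell on either side, at 2.61 in S9, 2.69 in S10, 3.40 in S11 and 3.26 in S12. The log2 fold change of AngII against control was 0.36 (standard error 0.19, unadjusted p = 0.0767, adjusted p = 0.782), and that of AngII + ldCil 0.29 (standard error 0.19, unadjusted p = 0.147). Cry2 (ENSMUSG00000068742.11, chr2:92403646-92434043) stood at 3.44, 3.54 and 3.42 in the controls. It was 3.71, 3.77, 4.04 and 3.71 in S13 to S16, again with no overlap. With AngII it was 3.54, 3.83, 3.89 and 3.46, and with ldCil 3.55, 3.51, 3.46 and 3.99, and these ranges overlapped that of control. Its log2 fold change between AngII + ldCil and control was 0.35 (standard error 0.16, unadjusted p = 0.0424, adjusted p = 0.849 by limma). That unadjusted call was lost when S1, S2, S3, S14 or S15 was left out, with a difference that stayed between 0.27 and 0.38. Cry2 shares 295 exonic bases (4.67%) with D930015M05Rik on the opposite strand.

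Nr1d1 and Nr1d2 encode the REV-ERB receptors, which repress Arntl. Nr1d1 (ENSMUSG00000020889.11, chr11:98767932-98775333) had the widest spread within groups of all members, an SD of 0.54 that was higher than in 84.5% of genes tested. Its controls lay at 4.44, 4.70 and 4.45. With AngII it ran from 4.18 in S5 through 4.79 in S8 and 5.36 in S7 to 5.60 in S6. With ldCil it was 4.75 in S9, 4.71 in S10, 6.22 in S11 and 5.52 in S12, which gives a 2.86-fold range within 1 treatment. With both agents it was 4.88, 4.71, 5.56 and 5.18 in S13 to S16. Every ldCil and AngII + ldCil library lay above every control, though S10 and S14 only just. The log2 fold change of ldCil against control was 0.77 (standard error 0.37, unadjusted p = 0.0549, adjusted p = 0.966) and that of AngII + ldCil 0.55 (standard error 0.37, unadjusted p = 0.157). Nr1d1 shares 263 of its exonic bases (8.55%) with Thra on the opposite strand. Thra had a mean level of 5.08, and since use of strand in the counting is not given in the sources used here, reads of this stretch cannot be told apart. Nr1d2 (ENSMUSG00000021775.11, chr14:18204054-18239127) had control levels of 4.72, 4.81 and 4.77, a range of 0.09. It was 4.35, 5.41, 5.35 and 4.52 in S5 to S8, 4.61, 4.72, 5.02 and 5.41 in S9 to S12, and 4.80, 4.77, 5.38 and 5.25 in S13 to S16. Each treated group thus held libraries at or below the controls and at least 1 library at 5.38 or more.

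Dbp (ENSMUSG00000059824.12, chr7:45705088-45710203) encodes a transcription factor of the clock output, with one of the largest daily swings known in rodent tissues. Its level was 3.33, 3.83 and 3.49 in S1 to S3 and 3.25, 3.76, 4.22 and 3.44 in S5 to S8. It was 3.25, 3.60, 3.19 and 4.13 in S9 to S12, and 3.67, 3.69, 4.91 and 3.32 in S13 to S16. S15 held 3.00 times the level of S16 under the same treatment, the widest range of any member within a group. No treatment passed the test against control, with log2 fold changes of 0.12 (AngII), −0.0027 (ldCil) and 0.35 (AngII + ldCil), each with a standard error of 0.34. Dbp shares 539 exonic bases (18.0%) with Sphk2 on the opposite strand, whose mean level was 4.09 and stayed between 3.85 and 4.25. As for Nr1d1 and Thra, reads of this stretch cannot be told apart.

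By treatment, no clock gene passed the adjusted threshold in any comparison, and neither did any other gene. At an unadjusted p under 0.05, AngII against control held 0 of the 10 members beside 776 genes, 6.04% of all tested. The 95% intervals of these differences were wide, from −0.42 to 0.25 for Per1 and from −0.34 to 1.24 for Nr1d1. The comparison of ldCil with control held 1 member (Arntl) beside 1.95% of genes, and AngII + ldCil with control 1 (Cry2) beside 5.62%. AngII + ldCil against AngII held 0 beside 331 genes (2.58%), AngII + ldCil against ldCil 1 (Arntl) beside 5.07%, and the interaction 1 (Arntl) beside 3.86%. After adjustment limma called 0 members and 0% of genes in each of these. Groups that did not overlap were counted as well. Against control, 1 member (Cry1) lay wholly above with AngII beside 5.06% of genes, and 1 (Nr1d1) with ldCil beside 3.50%. With AngII + ldCil, 4 members (Per2, Cry1, Cry2 and Nr1d1) lay wholly above control beside 7.35% of genes. No member was without overlap between AngII + ldCil and AngII (1.55% of genes) or ldCil (3.28%). The median log2 fold change of the members was 0.13 with AngII, 0.16 with ldCil and 0.28 with both agents, beside medians of 0.02, 0.0014 and 0.05 over all genes. These comparisons share the 3 control libraries.

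**Figure D2:**
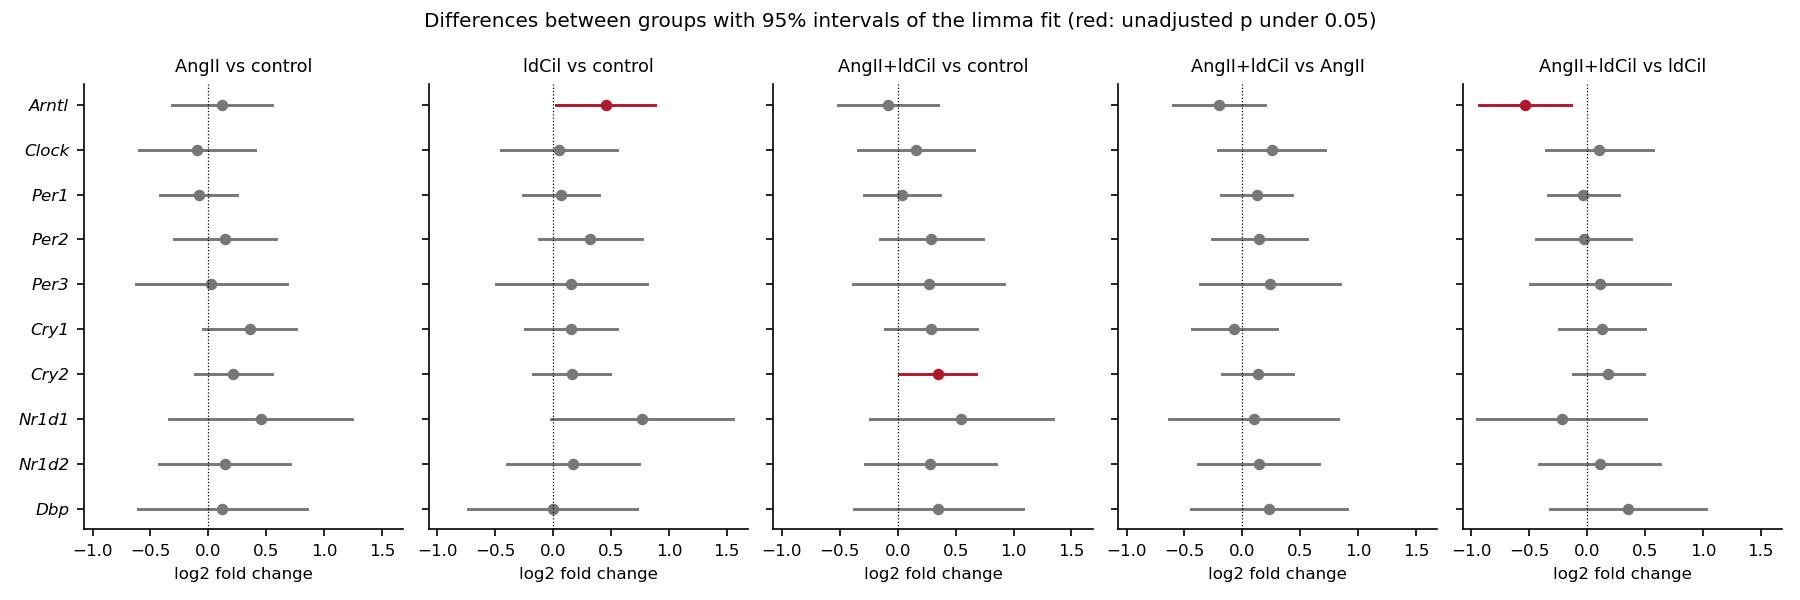
Log2 fold change (x axis) of each clock gene (rows) in 5 comparisons of groups, with the 95% interval of the limma fit as a line. Red marks an unadjusted p under 0.05, reached by Arntl at 0.45 and −0.54 and by Cry2 at 0.35, and the intervals of the remaining differences include 0.

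The widest range of levels inside a single treatment was 1.59 for Dbp (AngII + ldCil), 1.51 for Nr1d1 (ldCil), 1.19 for Per3 (AngII + ldCil) and 0.93 for Arntl (ldCil). The SD within groups exceeded the median of all genes tested for 5 of the 10 members. The extremes gathered in a few libraries. S5 was the lowest of the 15 for 6 members (Clock, Per1, Per2, Per3, Nr1d1 and Nr1d2). S11 was the highest for 4 (Arntl, Per2, Cry1 and Nr1d1) and the lowest for Dbp, and S15 was the highest for 3 (Per3, Cry2 and Dbp).

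To place the libraries on a phase axis, the mean of Nr1d1, Nr1d2, Dbp, Per1, Per2 and Per3 was taken minus Arntl, each centred on its mean over the 15 libraries. A high value has much of the 6 target genes and little Arntl. The value ran from −0.26 in S3 to 0.31 in S2 in control and from −0.73 in S5 to 0.64 in S7 with AngII. It ran from −0.68 in S11 to 0.49 in S12 with ldCil and from 0.19 in S13 to 0.65 in S15 with both agents. Libraries of 1 treatment were thus spread over up to 1.37 log2 units, and only the AngII + ldCil libraries were all above 0. The difference Dbp minus Arntl, a simpler measure, ran from −0.45 in S11 to 2.16 in S15. The members did not line up as a single opposed pair of arms, however. S11 had the highest Arntl and also the highest Nr1d1 and Per2, with low Dbp and Per3, and S5 had low levels of nearly all target genes with an Arntl level of 2.98, 0.15 above the mean.

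**Figure D3:**
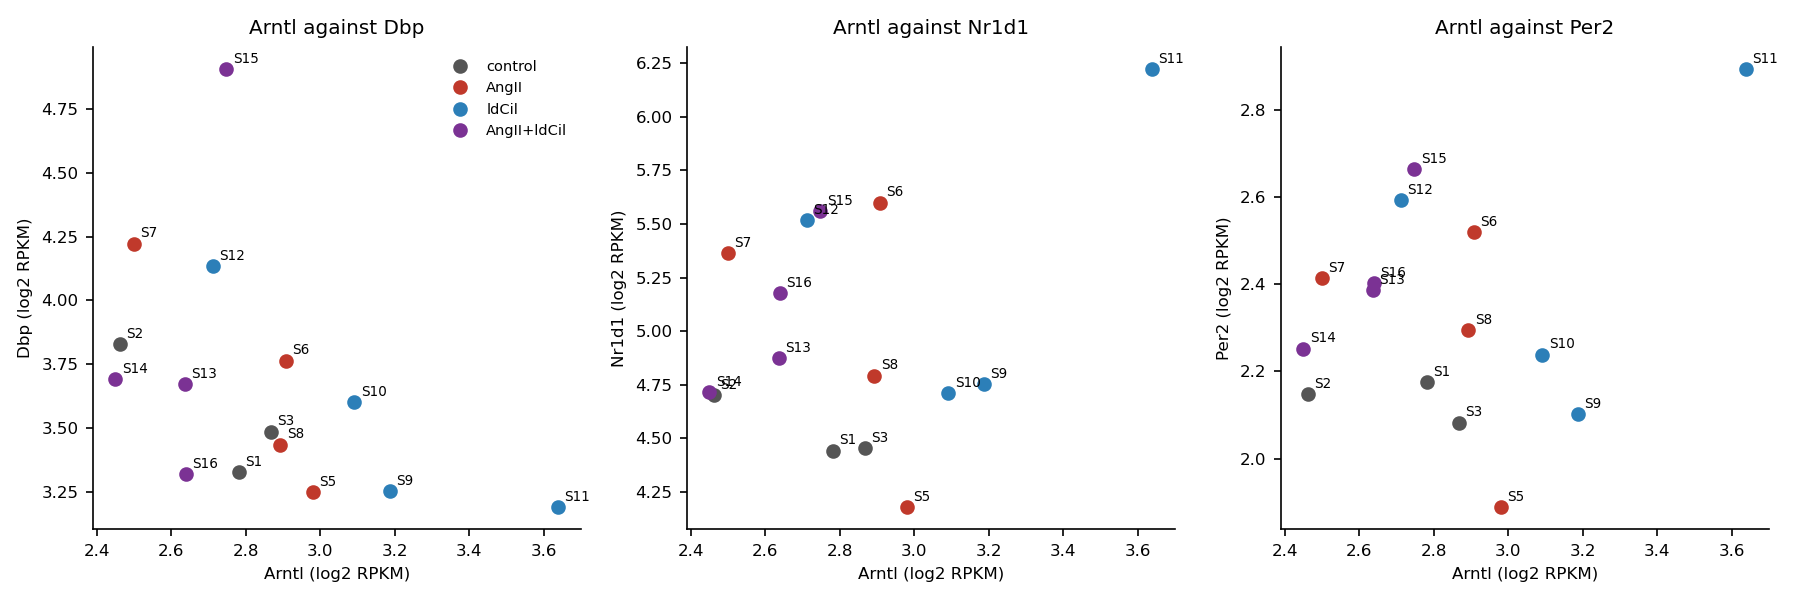
Arntl (x axis, log2 RPKM) against Dbp, Nr1d1 and Per2 (y axes, log2 RPKM). Each point is 1 library, coloured by treatment. Dbp was lowest and Nr1d1 and Per2 highest in S11, the library with the highest Arntl (3.64), and S15 had the highest Dbp (4.91).

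Across the 15 libraries Arntl was compared with each of the 9 other members. With Dbp, r was −0.47 (permutation p = 0.0811, adjusted over all genes tested p = 0.521) and Spearman's rho −0.63 (permutation p = 0.0143). Without S9 and S11, the libraries farthest from the Arntl median, r with Dbp was −0.30 (permutation p = 0.322). With Cry2, r was −0.46 (permutation p = 0.0829, adjusted p = 0.526), rho −0.41 (permutation p = 0.129) and r without those libraries −0.38. With Per3, r was −0.39 (permutation p = 0.153, adjusted p = 0.633), rho −0.26 (permutation p = 0.338) and r without those libraries −0.30. With Nr1d1, r was 0.30 (permutation p = 0.278, adjusted p = 0.759), rho 0.05 (permutation p = 0.873) and r without them −0.23. With Per2, r was 0.25 (permutation p = 0.368, adjusted p = 0.818), rho −0.08 (permutation p = 0.774) and r without them −0.22. For Clock, Per1, Cry1 and Nr1d2 it was between −0.21 and −0.01, with permutation p from 0.451 to 0.962. So 0 of the 9 pairs reached an unadjusted permutation p of 0.05 in r, where 10.8% of all genes (1391) did, and 0% of genes passed after adjustment. With S9 and S11 left out, all 9 were negative, from −0.38 to −0.10, and none had a permutation p under 0.05. Without S11 alone, r was −0.25 for Nr1d1 and −0.32 for Per2, so their positive values over all libraries rested on S11. With the first principal component regressed out over all 15 libraries, r with Arntl was 0.83 for Nr1d1, 0.67 for Per2, −0.55 for Cry2 and −0.50 for Dbp. That run kept S11, and whether its values rest on S11 was not tested. These values set no clock time. With treatment means removed, r with Arntl was −0.61 for Cry2 (permutation p = 0.0852), −0.54 for Per3 (permutation p = 0.0483) and −0.47 for Dbp (permutation p = 0.0757). It stayed positive for Per2 (0.17) and Nr1d1 (0.15), and these p-values were not adjusted over all genes. Within groups the libraries differed in the level of the clock genes by up to 3.00-fold. Neither run showed Arntl and all its targets opposed along 1 axis, and whether the libraries differ in clock phase cannot be told from these values.

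Among themselves the members formed 2 sets of like pattern, described here with treatment means removed and n = 15. Per2 and Nr1d1 had an r of 0.96, Nr1d1 and Nr1d2 0.81, and Cry1 0.77 with Per2 and 0.76 with Nr1d1. Dbp and Per3 had an r of 0.92, and Cry2 0.85 with Dbp and 0.81 with Per3. Nr1d2 was alike to both sets, with 0.80 for Cry2. Between the sets the values were lower, 0.41 for Nr1d1 with Dbp and 0.33 for Nr1d1 with Per3. Of the 45 pairs, 39 were positive with a median of 0.36, and 5 of the 6 negative pairs involved Arntl, the lowest of them with Cry2 (−0.61). The remaining negative pair was Per1 with Cry1 (−0.34). The pairs share libraries, and Per3, whose promoter printed above holds 2 D-boxes, is paired with the D-box factor Dbp here as a description only.

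**Figure D4:**
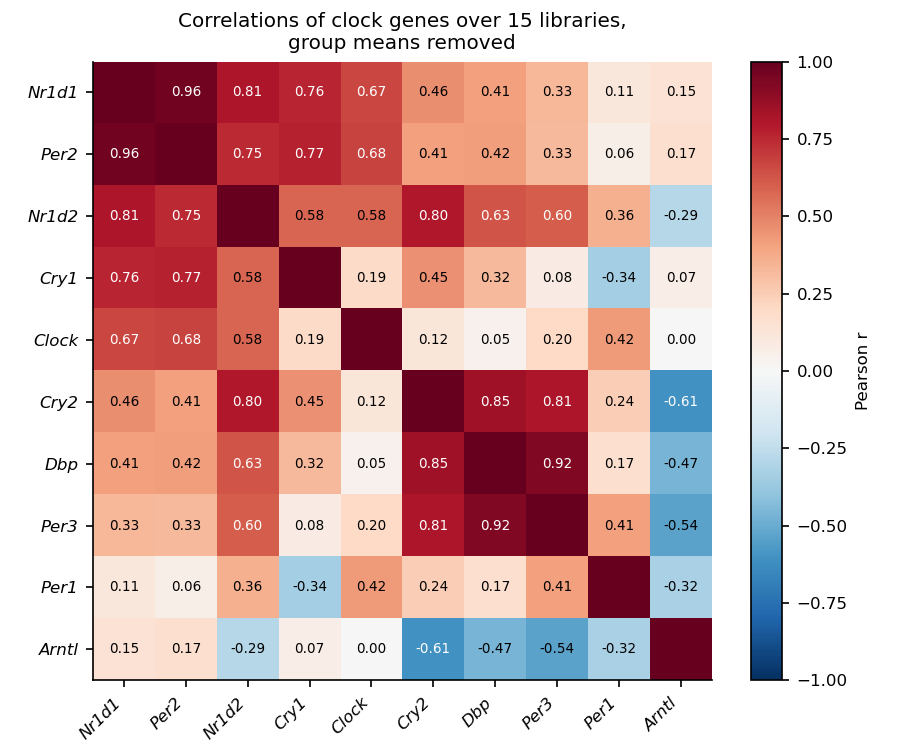
Pearson r between clock genes over 15 libraries after treatment means were removed. Rows and columns are genes and the colour runs from −1 (blue) to 1 (red). Nr1d1 and Per2 (0.96) and Dbp, Per3 and Cry2 (0.81 to 0.92) form blocks, and Arntl is negative with Cry2, Per3 and Dbp (−0.61 to −0.47).

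Nr1d1, Per2 and Nr1d2 were the clock genes closest to a difference between libraries that cut across the treatments and that many genes shared. The first principal component of all genes tested except the clock genes held 49.0% of the variance. Its scores were from 37.3 to 47.9 in S1, S3, S5, S9 and S10 and from −42.0 to −38.0 in S6, S7, S11, S12 and S15, while S2, S8, S13, S14 and S16 lay in between. Nr1d1 was at 4.18 to 4.75 in the 5 libraries with the highest scores, at 4.70 to 5.18 in those between, and at 5.36 to 6.22 in the 5 with the lowest. Its r with the score was −0.89 (permutation p = 2e-05, adjusted over all genes tested p = 0.000363) and rho −0.91 (permutation p = 1e-05, the smallest the permutations can give). Without S6 and S15, the libraries farthest from the median score, r was −0.86, and with treatment means removed it was −0.95. Per2 had an r of −0.87 (permutation p = 2e-05, adjusted p = 0.000363), a rho of −0.95 (permutation p = 1e-05) and an r of −0.85 without those libraries. Nr1d2 had an r of −0.84 (permutation p = 0.00016, adjusted p = 0.00139), a rho of −0.82 (permutation p = 0.00024) and an r of −0.80 without them. These 3 also stayed below a permutation p of 0.001 with treatment means removed. The r of Cry1 was −0.80 (permutation p = 0.00052, adjusted p = 0.00314), with a rho of −0.78 (permutation p = 0.00124) and an r of −0.76 without S6 and S15. The r of Cry2 was −0.69 (permutation p = 0.00512, adjusted p = 0.0173), with a rho of −0.58 (permutation p = 0.0254) and −0.60 without them. That of Clock was −0.61 (permutation p = 0.00208, adjusted p = 0.0088), with a rho of −0.74 (permutation p = 0.00228) and −0.64 without them. Dbp had an r of −0.54 (permutation p = 0.0325, adjusted p = 0.0726), a rho of −0.49 (permutation p = 0.0638) and an r of −0.44 (permutation p = 0.132) without those libraries. Leaving out S15 alone gave −0.45, and leaving out S6 alone −0.55. Per3 (r −0.46, permutation p = 0.0801), Arntl (0.09, permutation p = 0.751) and Per1 (−0.08, permutation p = 0.782) did not pass. The count was 7 of 10 members at an unadjusted permutation p under 0.05 beside 49.0% of all genes, and 6 of 10 after adjustment beside 40.5%, so the counts were not far from the shares over all genes. With treatment means removed 5 of 10 had an unadjusted permutation p under 0.05. The component is made of those same genes, whose median absolute r was 0.50, and 4.81% of them had an absolute r as large as Nr1d1, 6.23% as large as Per2 and 8.53% as large as Nr1d2.

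**Figure D5:**
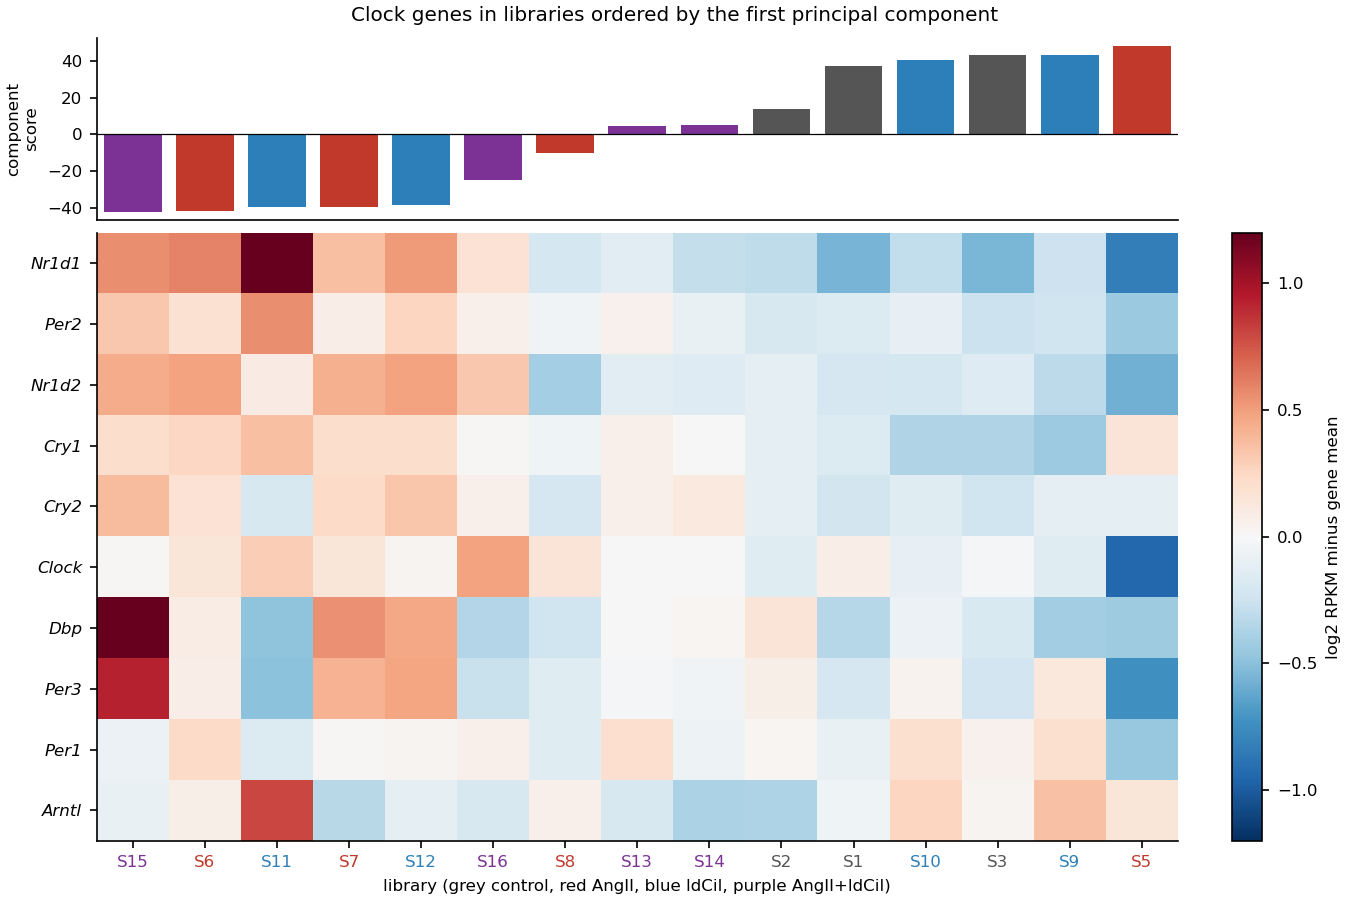
Top, score of each library on the first principal component of all genes tested except the clock genes (bars, coloured by treatment). Bottom, each clock gene (rows) in each library (columns, ordered by that score) as log2 RPKM minus the mean of the gene. Nr1d1, Per2 and Nr1d2 run from high at the left to low at the right, Dbp and Per3 peak in S15, S7 and S12, and Arntl is highest in S11.

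Cell type markers moved along the same component. The mean of the 4 macrophage markers (Lyz2, Cd68, Csf1r and Adgre1) had an r of 0.88 with the score (permutation p = 6e-05, rho 0.92, permutation p = 1e-05), and that of the 5 fibroblast markers 0.70 (permutation p = 0.00196, rho 0.69, permutation p = 0.0056). The mean of the 6 cardiomyocyte markers had an r of −0.85 (permutation p = 0.0001, rho −0.68, permutation p = 0.00617). Of the 6 marker lists compared, the epicardial mean had an r of −0.51 (permutation p = 0.0499, rho −0.35, permutation p = 0.206), the endothelial mean 0.33 (permutation p = 0.247, rho 0.48, permutation p = 0.0735) and the smooth muscle mean 0.0012 (permutation p = 0.997, rho 0.05, permutation p = 0.862). The macrophage mean ran from 4.56 to 4.97 in control, 3.48 to 5.58 with AngII, 3.56 to 5.08 with ldCil and 2.54 to 4.89 with both agents. The cardiomyocyte mean ran from 9.74 to 9.92, 9.83 to 10.4, 9.79 to 10.3 and 9.85 to 10.3 in the same order. The fibroblast mean was lowest in S16 at 5.80 and highest in S10 at 8.31. The markers of the 6 lists had a log2 RPKM above 0 in every library, except endothelial Kdr (lowest −0.78) and epicardial Upk3b (lowest −1.29). The part of the markers in the levels of Nr1d1, Per2 and Nr1d2 was not tested.

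The wider clock genes were looked at in lists chosen by function. Of 12 other clock transcription factors 11 were tested, and 0 had an unadjusted p under 0.05 with AngII against control, 0 with ldCil and 1 with AngII + ldCil, beside 6.04%, 1.95% and 5.62% of all genes in these comparisons. That gene was Tef, a D-box factor related to Dbp, with levels of 5.52, 5.73 and 5.49 in S1 to S3 and 5.79, 5.77, 6.08 and 6.07 in S13 to S16. These groups did not overlap, where 7.35% of all genes lay wholly above control. The log2 fold change was 0.35 (standard error 0.15, unadjusted p = 0.0322, adjusted p = 0.849). Bhlhe40, which encodes the repressor DEC1, ran from 6.33 in S5 to 7.87 in S11 (limma F test over the treatments, unadjusted p = 0.211). Rora, an activator at the RORE, was between 4.12 in S5 and 4.93 in S15. With treatment means removed, Dbp had an r of 0.75 with Hlf, 0.67 with Tef and 0.64 with Rora, and Arntl had an r of 0.62 with Bhlhe40 and −0.54 with Tef.

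Of the 15 kinases, ubiquitin ligases and partners of the clock proteins, 1 had an unadjusted p under 0.05 with AngII, 0 with ldCil and 1 with both agents against control (6.04%, 1.95% and 5.62% of all genes). Both times it was Fbxl21, a ligase subunit for CRY proteins, at 1.46, 1.35 and 1.59 in the controls. In the AngII libraries it was 0.73, 0.98, 0.93 and 0.79, all below the controls, with a log2 fold change of −0.61 (standard error 0.24, unadjusted p = 0.0254, adjusted p = 0.782). Prkaa2, the AMPK subunit that marks CRY for loss, stood at 5.57, 6.03, 6.28 and 6.28 in S5 to S8 and at 6.36, 6.51, 6.65 and 7.01 in S13 to S16. These groups did not overlap, as was so for 1.55% of all genes. AngII + ldCil exceeded AngII by 0.60 (standard error 0.19, unadjusted p = 0.00658, adjusted p = 0.9997 by limma). Gsk3b, another kinase of clock proteins, was 0.30 higher in that comparison (standard error 0.13, unadjusted p = 0.0384, adjusted p = 0.9997). They were the 2 of the 15 with an unadjusted p under 0.05 there, beside 2.58% of all genes.

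Of the 15 clock output genes, 0 had an unadjusted p under 0.05 with AngII, 1 with ldCil and 2 with both agents against control (6.04%, 1.95% and 5.62% of all genes). Lonrf3 was the one with ldCil (0.86, standard error 0.38, unadjusted p = 0.0407) and was 1.02 above control with both agents (standard error 0.38, unadjusted p = 0.0179). Por, the cytochrome P450 reductase, was lower with both agents (log2 fold change −0.56, standard error 0.23, unadjusted p = 0.0285). Kcnip2, the potassium channel subunit KChIP2 whose RNA cycles in heart, ran from −0.81 in S10 to 4.10 in S15 and differed widely among the controls, at 0.57, 2.58 and −0.35 in S1 to S3. None of these passed the adjustment.

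Genes that respond to serum or to glucocorticoids, which can reset the clock in culture, were included because Per1 and Per2 belong to the same responses. Of 8 glucocorticoid-responsive genes 0, 0 and 1 had an unadjusted p under 0.05 with AngII, ldCil and both agents against control, and of 10 immediate early genes 0, 2 and 1, beside the same 6.04%, 1.95% and 5.62% of all genes. The immediate early genes were Fosb (log2 fold change 2.25, standard error 0.79, unadjusted p = 0.0128) and Atf3 (0.91, standard error 0.36, unadjusted p = 0.0228) with ldCil and Junb with both agents. Fosb was barely expressed in the controls, with a log2 RPKM of −0.69 in S1, −1.84 in S2 and −0.88 in S3. Mt2, a metallothionein, was lower with both agents than in control (−1.05, standard error 0.47, unadjusted p = 0.0423) and than with ldCil (log2 fold change −1.45, standard error 0.44, unadjusted p = 0.00504, adjusted p = 0.974). Against ldCil, 2 of the 8 glucocorticoid-responsive genes had an unadjusted p under 0.05, beside 5.07% of all genes. Zbtb16, a glucocorticoid-induced factor, stayed between −0.49 in S2 and 1.29 in S15. Junb was 6.16, 5.40 and 6.14 in S1 to S3 and 5.31, 5.37, 4.93 and 5.13 in S13 to S16 (log2 fold change −0.72, standard error 0.26, unadjusted p = 0.0151, adjusted p = 0.849). Errfi1, Atf3 and Fosb each had their highest level in S11, the library that also had the highest Arntl, Per2, Cry1 and Nr1d1. The other genes named from these lists peaked elsewhere, Junb in S1 (6.16), Mt2 in S9 (5.68) and Zbtb16 in S15 (1.29). In S11 Errfi1 stood at 7.28, while S9, S10 and S12 of the same treatment had 4.74, 4.53 and 5.29. Atf3 stood at 5.28 in S11 beside 3.62, 3.38 and 3.68. Fosb stood at 2.97 in S11 beside −0.02, −0.31 and 1.83. Any link of Errfi1, Atf3 and Fosb to the Arntl and Nr1d1 levels of S11 was not tested.

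Outside the core clock genes, those most like Arntl across libraries with treatment means removed were Uck2 (r = 0.92), a uridine-cytidine kinase, and Pygl (0.90), the liver glycogen phosphorylase. Next came Zfp37 (0.87), Slc3a2 (0.86), an amino acid transporter chain, and Ccdc136 (0.86). Those most opposed to it were Klc4 (−0.88), a kinesin light chain, Tbl1x (−0.87), Mylk3 (−0.87), the cardiac myosin light chain kinase, Asb4 (−0.87) and Vmac (−0.86). Those most like Dbp were Snrk (0.96), Trpm4 (0.96), a cation channel, Zfp395 (0.96), Usp54 (0.96) and Lmod3 (0.95), an actin nucleator of muscle. Among those most opposed to it were Ran (−0.96), the GTPase of nuclear transport, Plekhg3 (−0.96), Atic (−0.95), an enzyme of purine synthesis, and Cmip (−0.95). The core clock genes were left out of these rankings by rule, so their absence is no result. Per3, for example, had an r of 0.92 with Dbp. Each r describes 15 points that share their libraries.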

How the data were processed

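RNA-Seq was made from poly(A) RNA of 15 cardiomyocyte libraries in 4 treatment groups. By the submitters' processing notes the authors aligned reads to GRCm38 (mm10) with HISAT2 and counted them with HTSeq, with their versions and strand setting not given in the sources used here. In the deposited table each value is a log2 RPKM, which the authors had normalised by conditional quantile normalisation, so depth is unknown. Text fragments in 78 rows of the table were not used. Of 14337 identifiers, 14329 matched GENCODE M21. Testing was limited to the 12848 genes whose log2 RPKM averaged at least 0. Limma 3.58.1 in R 4.3.3 fitted 1 mean per group to all libraries, with trended empirical Bayes moderation and Benjamini-Hochberg adjustment over all genes tested, 2-sided. Correlations used 100000 permutations, 2-sided (Python 3.11.15, numpy 2.4.6, scipy 1.17.1, matplotlib 3.10.9), with p adjusted over all genes tested in place of over the clock genes alone. The scripts were tested on simulated data. The clock genes and the lists were chosen with earlier results of these data known. Beyond the 10 clock genes, the text names the 3 genes of each list with the smallest p of the limma F test over the groups, the 5 genes most like and the 5 most opposed to Arntl and to Dbp, and any further gene of a count of 5 or fewer, chosen after its values were seen (Hlf also). Of the genes under this rule, 1 is not reported here. Alternatives were other filters, 1 added to RPKM, median centring, quantile normalisation, library weights, the leading residual component as covariate, only the groups compared, group means removed, the first component regressed out and each library left out. Leaving out S5 and S11 together was chosen after seeing the data. Promoter sequences are those of RefSeq for GRCm38.p6, and 9 of the 10 clock genes had an entry, Per2 being the exception.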

Additional observations from a re-analysis of the deposited data

Results flagged for a closer look

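In 30 groups of 4 libraries (10 clock genes, 3 treated groups), 3 had a library far from the others, and chance alone marks about 1 in 20 groups. Clock stood at 4.32 in the AngII library S5, with the other AngII libraries between 5.41 and 5.42. Clock stood at 5.75 in the AngII + ldCil library S16, with the others between 5.26 and 5.28. Cry2 stood at 3.99 in the ldCil library S12, with the others between 3.46 and 3.55. Arntl was marked for a difference between conditions: the effect of ldCil with AngII differed from that without it by −0.66 on the log2 scale (limma interaction, unadjusted p = 0.0306, adjusted p = 0.958).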

How the results depend on the processing

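No paired analysis was possible because the labels number the libraries through all treatments, from S1 to S16, and give no replicate number that treatments share. The counts of clock genes at an unadjusted p under 0.05 were within 1.5 times those reported, in all 6 comparisons, under other filters, 1 added to RPKM, median centring and quantile normalisation. With library weights the counts were 7 (AngII), 3 (ldCil) and 3 (AngII + ldCil) against control, 2 (AngII + ldCil against AngII), 3 (against ldCil) and 4 (interaction). In the same order 55.5%, 12.3%, 32.7%, 44.9%, 28.5% and 36.4% of all genes had an unadjusted p under 0.05. After adjustment the weights called 7, 0 and 1 of the clock genes against control, 2 against AngII, 2 against ldCil and 1 for the interaction. Of all genes 48.6%, 0.0233%, 18%, 31.5%, 12.6% and 18.6% passed the adjustment, again in that order. The weights gave S5 a weight of 0.11 and S1 one of 7.01. With the leading residual component as covariate the counts were 2, 3 and 3 against control, beside 15.1%, 10.7% and 14.9% of all genes, and 2 for the interaction (10.1%). Nr1d1 passed the adjustment there with ldCil and with AngII + ldCil, where 0.187% and 3.04% of all genes did, a fit that lowers p by its construction. With only the groups compared the counts were 1, 0 and 2 against control, beside 8.18%, 3.2% and 10.7% of all genes. Without S5 and S11 together they were 1 (Nr1d1, 0.72), 0 and 2 against control, and 0 for the interaction. Leaving out each library gave counts of 0 to 1 with ldCil against control, 0 to 1 with AngII + ldCil against control, 1 to 2 for AngII + ldCil against ldCil, and 0 to 1 for the interaction. The Arntl interaction lost its unadjusted call without S2, S5, S6, S11 or S14.

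The number of the 9 clock genes related to Arntl at an unadjusted permutation p under 0.05 was 1 with group means removed (Per3), 3 with the first component regressed out (Nr1d1 at 0.83 and Per2 at 0.67, both positive, and Cry2 at −0.55), 1 without S5 and S11 together (Cry1) and 0 to 1 with each library left out. Directions that turned all belonged to values that missed the unadjusted threshold. For AngII against control, leaving out each library in turn gave −0.0044 to 0.22 for Arntl (negative without S2), −0.19 to 0.18 for Clock and −0.19 to 0.0355 for Per1 (both positive without S5), −0.15 to 0.24 for Per3 (negative without S1, S3, S6 or S7), −0.0268 to 0.33 for Nr1d2 (without S6 or S7) and −0.0646 to 0.26 for Dbp (without S7). Library weights gave −0.11 for Arntl, 0.0845 for Clock and 0.11 for Per1, and leaving out S5 and S11 together gave 0.18 for Clock and 0.0355 for Per1. For r with Arntl, leaving out each library gave −0.34 to 0.13 for Clock (positive without S5 or S16), −0.25 to 0.0667 for Per1, −0.32 to 0.36 for Per2 and −0.25 to 0.39 for Nr1d1 (these 3 turned without S11), and −0.47 to 0.17 for Cry1 (positive without any of 5 libraries). Leaving out S5 and S11 together gave 0.41 for Per1, −0.22 for Per2 and −0.15 for Nr1d1. With group means removed, Clock had 0.0049 and Cry1 0.067, and with the component regressed out 0.0181 and 0.10. For r with the component, leaving out each library gave −0.0188 to 0.48 for Arntl (negative without S9) and −0.21 to 0.27 for Per1 (positive without S5 or S6), and leaving out S5 and S11 gave 0.18 for Per1. Where no construction is named, the cause was not tested. Depth is unknown, so what it limits cannot be given.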
